A study of Rattus norvegicus with 19 samples.

Results

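Cadherins, protocadherins, neurexins, neuroligins and the Lrrtm, Slitrk, contactin and Cntnap families were described here through the transcribed intergenic regions that surround their genes in cultured rat neurons. The members were chosen by symbol: 93 of the 17715 gene symbols in the deposited RNA table began with Cdh or Cntn and a digit, or with Pcdh, Nrxn, Nlgn, Lrrtm, Slitrk or Cntnap. A transcriptionally active putative enhancer (TAPE) is an intergenic stretch of open chromatin with RNA reads from both strands, and 198 of 27538 TAPEs lay less than 200 kb from the start of at least one member gene. They formed 352 TAPE-gene pairs with 82 of the 93 genes, beside 73284 pairs under 200 kb with other genes.

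Total RNA was sequenced from primary cultures of Sprague-Dawley rat cortex, hippocampus or striatum, dissected from embryos at day 18 of gestation. After 11 days in culture they received KCl, which depolarizes neurons, or Neurobasal media as vehicle, for 1 h. The labels give no genetic manipulation. Each region and treatment had 3 libraries except striatum with vehicle, which had 4, for 19 in all. The paper's supplementary methods instead list 3 vehicle and 4 KCl files for striatum, and the sample titles were followed here. The sample labels give 25 mM KCl and the text of the series and its methods give 10 mM. Replicates were separate libraries, and p-values measure the spread between libraries, which may be partly technical where cultures were not separate.

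Depth was 46.4 to 72.5 M reads (M, 1e6 reads) a library, of which 47431 to 83272 fell in TAPEs. The 2 measurable cortex markers of 6, the 3 hippocampus markers of 4 and the 7 striatum markers of 10 each had their highest mean in their own region, although the cortex marker Neurod6 ran from 0.69 to 1.02 SD in cortex and from 0.42 to 0.72 SD in hippocampus, with overlap. One cortex vehicle library (replicate 3) carries a striatal tissue label but a cortical title, and was grouped by its title. At the Cntn3 TAPE described below it held 0.0988 CPKM, under every striatal library. Without it, the region test below called 9 member TAPEs in place of 10. Glial markers also differed by region: the 4 measurable astrocyte markers of 5 averaged 0.45 SD above their overall mean in cortex, 0.65 SD above in hippocampus and -0.95 SD in striatum, and the 5 oligodendrocyte lineage markers 0.76, 0.26 and -0.87 SD. The 3 measurable microglial markers of 4 averaged -0.12, 0.53 and -0.35 SD and the 3 endothelial and mural markers of 4 averaged 0.25, 0.24 and -0.42 SD, in the same order. The part of these differences in the regional results below was not tested, and in bulk cultures fewer cells of a type cannot be told apart from less RNA per cell.

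Cadherins are calcium-dependent adhesion proteins that join neurons to like neurons, and protocadherins are their largest relatives. The clustered protocadherins are arranged in tandem arrays whose varied expression gives single neurons different surface identities, whereas the others lie outside these arrays. Neurexins on the presynaptic side bind neuroligins and Lrrtm proteins on the postsynaptic side. Slitrk proteins bind presynaptic receptor phosphatases, contactins are immunoglobulin-type proteins tethered to the membrane by a lipid anchor, and Cntnap proteins are neurexin relatives that work with contactins along the axon.

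The members were weakly transcribed. Over all 19 libraries a member TAPE collected a median of 17 reads, against 15 reads for the 19348 other TAPEs under 200 kb from a gene. The most abundant had 1655 reads. Levels are given in CPKM, reads per kb of the region and per M reads of the library. A mean of at least 0.05 CPKM was required for testing, which 22 of the 198 members passed (11.1%), against 8.06% of the other TAPEs near a gene. The lowest member inside this limit averaged 0.0512 CPKM and the highest outside 0.0472 CPKM. Since a member can pass through the group in which it is high, counts over the 22 are not counts over all members. The remaining 176 members had at most 158 reads, and 111 of them had fewer than 20. At the other limit, the farthest member TAPE lay 199875 bp from Slitrk6 with r = 0.447, and the nearest TAPE left out lay 200508 bp from Lrrtm4 with r = 0.102.

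The surroundings of the members were uneven. In 47 of the 198 (23.7%) only 1 gene started within 1 Mb, against 1.08% of the other TAPEs near a gene. In 101 of the 198 the nearest gene of all was itself a member. The 43 member TAPEs near Pcdh genes on chromosome 18 stood apart, with a median of 51 genes within 1 Mb and 49 reads in all, against 13 genes and 14 reads for the other 155. The 198 included 8 neighbouring pairs of overlapping regions, and the deposited coordinates extend each region by 500 bases at both ends. Overlapping members count some of the same reads.

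By family, 74 TAPEs lay near 9 of the 11 other protocadherins and 55 near 21 of the 23 cadherins. The contactins had 9 TAPEs, the neurexins 8, the neuroligins 8, the Lrrtm genes 8, the Slitrk genes 17 and the Cntnap genes 7. The 34 clustered protocadherins with a TAPE under 200 kb shared only 12 of them, in 145 pairs. The genes with the most TAPEs were Pcdh1 with 28, Pcdh8 with 23, Pcdh12 with 22, Cdh16 with 14 and Pcdh20 with 7. Pcdh1 and Pcdh12 are neighbours and had 19 of their TAPEs in common.

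For 7 member genes a TAPE passed the region test below, lay closest to that gene among all genes and had its highest correlation within 1 Mb with it. At Cntn3, Cdh7 and Slitrk5 no other gene started within 1 Mb, so being closest and best-correlated was fixed in advance. This may hold for a further gene among the 7, since 4 of the 22 tested members had only 1 gene within 1 Mb. At Slitrk5 the correlation with the gene was negative. The 250 bases before the RefSeq start are shown for 4 of the 7 genes, chosen after their values were seen. Cntn3 had the highest correlation and Pcdh8 was the gene that was higher with KCl in every region. The windows of Cdh20 and Slitrk2 held a searched motif. All 4 windows come from RefSeq on build GRCr8, not the Rn6 build of the TAPE coordinates, and 69 of the 93 member symbols had an entry. The motifs were searched on both strands, spelled TGANTCA for AP-1, TGACGTCA for the cyclic AMP response element (CRE) and CTANNNNTAG for MEF2, and no spelling contains another. Capitals mark a match.
Cntn3 (chr4:136681912-136682161, minus strand): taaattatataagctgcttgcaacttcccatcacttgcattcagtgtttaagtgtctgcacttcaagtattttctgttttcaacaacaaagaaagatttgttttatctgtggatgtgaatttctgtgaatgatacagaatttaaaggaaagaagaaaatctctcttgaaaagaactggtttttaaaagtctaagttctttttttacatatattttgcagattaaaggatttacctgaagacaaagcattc
Pcdh8 (chr15:61612091-61612340, minus strand): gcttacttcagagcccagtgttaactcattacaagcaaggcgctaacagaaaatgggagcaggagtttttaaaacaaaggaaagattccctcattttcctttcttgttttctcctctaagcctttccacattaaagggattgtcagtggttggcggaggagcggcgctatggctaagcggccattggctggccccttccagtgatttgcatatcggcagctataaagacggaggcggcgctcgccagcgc
Cdh20 (chr13:21515017-21515266, plus strand): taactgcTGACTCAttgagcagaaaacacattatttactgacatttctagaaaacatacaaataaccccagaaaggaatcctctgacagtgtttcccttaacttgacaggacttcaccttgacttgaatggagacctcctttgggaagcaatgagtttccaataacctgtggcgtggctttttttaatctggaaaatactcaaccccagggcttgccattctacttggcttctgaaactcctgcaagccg
Slitrk2 (chrX:150291341-150291590, plus strand): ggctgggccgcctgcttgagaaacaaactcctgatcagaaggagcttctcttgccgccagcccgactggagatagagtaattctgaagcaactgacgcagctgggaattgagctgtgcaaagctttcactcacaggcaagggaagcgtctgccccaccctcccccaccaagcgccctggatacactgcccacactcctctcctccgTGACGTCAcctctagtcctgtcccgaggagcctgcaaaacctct

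The Cdh20 window held 1 AP-1 spelling and the Slitrk2 window 1 CRE spelling, and the Cntn3 and Pcdh8 windows held none of these. Of all 27457 RefSeq windows, 6.36% held the AP-1 spelling, 1.70% the CRE spelling and 3.43% the MEF2 spelling. Among the 69 member windows these were 5, 2 and 1. The Cntn3 window was poor in GC (30%) and had 0 CpG dinucleotides, against a median of 6 over all windows, and the Pcdh8 window had 11.

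The first comparison asked in which brain region these TAPEs were transcribed, with the treatments pooled. It used limma on log2(CPKM + 0.05) with Benjamini-Hochberg adjustment over all tested TAPEs. A TAPE was called region-dependent at an adjusted p under 0.05 in the F-test, and selective where it was also higher in 1 region than in each of the others at an unadjusted p under 0.05. Of the 22 tested members 10 were region-dependent (45.5%), close to the 48.8% of all 1870 tested TAPEs. The members that passed fell into a group low in striatum and a group high in striatum. Selective for striatum were 5 members (22.7%, against 16.7% of all), near Cntn3, Slitrk5, Cdh7, Cdh22 and Pcdhb1. Between pairs of regions, at an adjusted p under 0.05, 1 member was higher in cortex than in hippocampus (8.98% of all) and 0 the other way (5.88% of all), also at an unadjusted p under 0.05. Against striatum, 4 were higher in cortex (16.6% of all) and 5 in hippocampus (16.9% of all), and striatum was higher than cortex in 3 (16.6% of all) and than hippocampus in 5 (26.1% of all). By this limma test none was selective for cortex (5.67% of all) or hippocampus (6.74% of all), and voom on the recovered reads also gave 0 for both. Without the filter on low values all 198 members were tested, and 2 were selective for cortex and 4 for hippocampus. With a pseudocount of 0.25 or with treatment as a covariate, 1 of the 22 was selective for cortex. The shares of all TAPEs under these settings are not given here, so these counts cannot be set against a background.

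**Figure D1:**
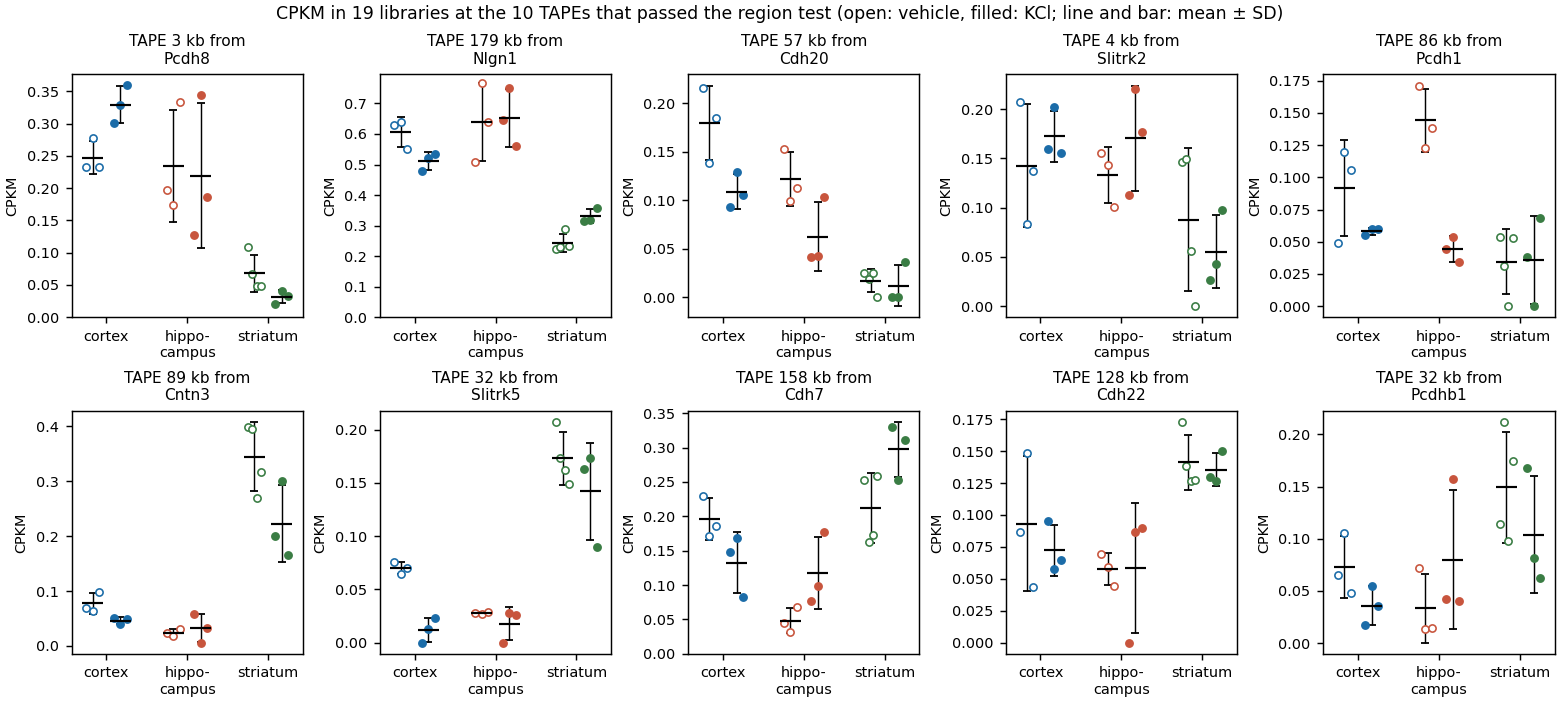
CPKM (vertical axis) in each of the 19 libraries by region (horizontal axis) at the 10 member TAPEs that passed the region test, with open points for vehicle, filled points for KCl and the mean ± SD of each group. The upper row holds the TAPEs lowest in striatum and the lower row those highest in striatum, where the Cntn3 TAPE reached 0.398 CPKM.

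The TAPE upstream of Cntn3, which encodes a contactin, had the smallest region p of all members. It spans chr4:135157415-135160422 (Rn6) on the 5′ side of the gene, 88.9 kb from its start, with no other gene within 1 Mb. Its CPKM ran from 0.166 to 0.398 in striatum (median 0.300), from 0.0391 to 0.0988 in cortex (median 0.0572) and from 0.00586 to 0.0582 in hippocampus (median 0.0268). Every striatal library lay above every other library. The mean was 0.292 ± 0.0888 CPKM in striatum (SD, n = 7) and 0.0280 ± 0.0177 CPKM in hippocampus (SD, n = 6). The log2 difference of hippocampus minus striatum was -2.12 (SE 0.22), with an adjusted p of 3.37e-09 in the limma F-test over regions.

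The gene level of Cntn3 had the same order. Gene levels were solved from the deposited correlations of a gene with many TAPEs, which fix its profile over the libraries up to an unknown scale. These profiles are given in SD from the gene's own mean and carry no fold change. They could be solved for 61 of the 93 members and for 11017 genes in all. The Cntn3 level lay between 1.01 and 1.49 SD in striatum, between -0.68 and -0.53 SD in cortex and between -0.91 and -0.77 SD in hippocampus. Its correlation with the TAPE was r = 0.950 over the 19 libraries, and leaving out 1 library gave 0.944 to 0.968. Within regions it was 0.850 in striatum, 0.641 in cortex and -0.227 in hippocampus.

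Of the cadherins, Cdh7 and Cdh22 had striatal TAPEs and Cdh20 one low in striatum. All 3 encode classical cadherins of the kind expressed in patches of the developing brain. The Cdh7 TAPE (chr13:31238671-31240274) lay on the 3′ side of its gene, 158 kb from the start but 7.46 kb past the annotated end, with no other gene within 1 Mb. Its level ran from 0.163 to 0.330 CPKM in striatum (median 0.253), 0.0820 to 0.230 CPKM in cortex (median 0.170) and 0.0322 to 0.177 CPKM in hippocampus (median 0.0721). The ranges overlapped between striatum and cortex. Hippocampus was lower than striatum by a log2 difference of -1.22 (SE 0.23) and cortex by -0.49 (SE 0.23), with a limma adjusted p of 0.000185 over regions. The gene itself had its 6 hippocampal libraries below all others, at -1.46 to -1.34 SD.

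The Cdh20 TAPE (chr13:24765806-24767889) lay 56.6 kb from its gene on the 5′ side. It stood at 0.0931 to 0.215 CPKM in cortex (median 0.134), 0.0420 to 0.153 CPKM in hippocampus (median 0.101) and 0 to 0.0368 CPKM in striatum (median 0.0193). No striatal library reached a cortical or hippocampal one. The mean was 0.145 ± 0.0472 CPKM in cortex (SD, n = 6) and 0.0152 ± 0.0151 CPKM in striatum (SD, n = 7), a log2 difference of 1.58 (SE 0.23) with a limma adjusted p of 3.64e-06 over regions. The Cdh22 TAPE (chr3:162043785-162045822) stood 128 kb from its gene and only 9189 bp from Zfp663, with 0.127 to 0.173 CPKM in striatum (median 0.130), 0.0437 to 0.149 CPKM in cortex (median 0.0756) and 0 to 0.0899 CPKM in hippocampus (median 0.0643). Its striatal and cortical ranges overlapped, and the adjusted p over regions was 0.00695 by limma.

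Among the protocadherins the TAPE beside Pcdh8 had the smallest region p. Pcdh8 encodes a protocadherin known as an activity-regulated synaptic protein. The TAPE (chr15:62203002-62204792) lay on its 5′ side, 3.06 kb from the start. It held 0.232 to 0.359 CPKM in cortex (median 0.289), 0.127 to 0.345 CPKM in hippocampus (median 0.192) and 0.0211 to 0.108 CPKM in striatum (median 0.0482). The striatal libraries lay below all others. Cortex exceeded striatum by a log2 difference of 1.76 (SE 0.22), with a limma adjusted p of 9.00e-08 over regions. One of the 9 tested TAPEs near Pcdh1 or Pcdh12 passed as well (chr18:31256971-31258932, 85.8 kb from Pcdh1), at an adjusted p of 0.0395 by limma, but failed in 8 of 19 repeats with 1 library removed. Its medians were 0.0598 CPKM in cortex, 0.0884 CPKM in hippocampus and 0.0385 CPKM in striatum, and the ranges overlapped.

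The neuroligin with a regional TAPE was Nlgn1, whose product stands mainly at excitatory synapses. Its TAPE (chr2:111971050-111974105, 179 kb upstream on the 5′ side) was the most abundant member and the only one under 200 kb from Nlgn1. It held 0.509 to 0.766 CPKM in hippocampus (median 0.644), 0.479 to 0.641 CPKM in cortex (median 0.543) and 0.225 to 0.357 CPKM in striatum (median 0.288). The striatal libraries did not reach the others. Hippocampus exceeded striatum by a log2 difference of 1.07 (SE 0.15), with a limma adjusted p of 3.86e-07 over regions, while cortex minus hippocampus was -0.18 (SE 0.15), within the spread.

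Both tested Slitrk TAPEs were regional and in opposite directions. The one beside Slitrk2 (chrX:151098716-151100877, 3.78 kb from the start on the 5′ side) held 0.0829 to 0.208 CPKM in cortex (median 0.158), 0.101 to 0.220 CPKM in hippocampus (median 0.149) and 0 to 0.149 CPKM in striatum (median 0.0559), with a limma adjusted p of 0.00974. The ranges overlapped. The one near Slitrk5 (chr15:96853661-96854935, 32.5 kb from the start on the 3′ side) held 0.0902 to 0.207 CPKM in striatum (median 0.163), 0 to 0.0755 CPKM in cortex (median 0.0439) and 0 to 0.0284 CPKM in hippocampus (median 0.0273), with a limma adjusted p of 2.90e-06. Every striatal library lay above every other.

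The Slitrk5 gene did not have the order of its TAPE. No other gene started within 1 Mb, yet r was -0.0664 over the 19 libraries. The gene level was lowest in cortex, at -1.67 to -0.61 SD, highest in hippocampus, at 0.38 to 1.61 SD, and in striatum it ran from -0.44 to 1.09 SD. The TAPE separated striatum from both other regions and the gene did not.

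**Figure D2:**
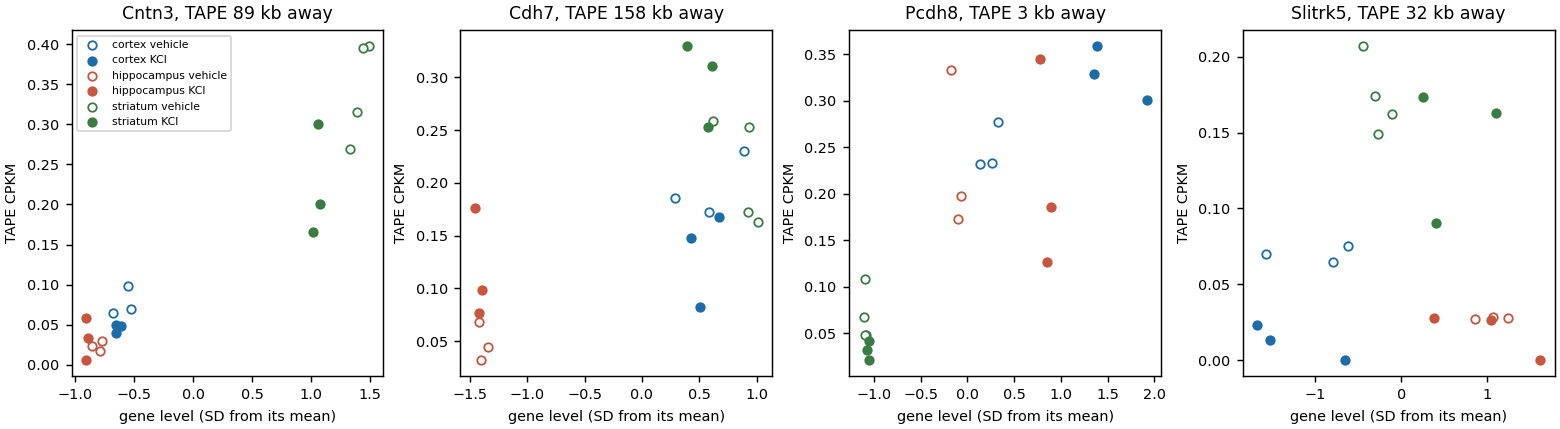
TAPE level in CPKM (vertical axes) against the level of its closest gene in SD from that gene's mean (horizontal axes), 1 point per library, coloured by region with open points for vehicle and filled points for KCl. The Cntn3 points run together (r = 0.950), the Pcdh8 gene values spread with KCl in cortex and hippocampus, and the Slitrk5 pair has r = -0.0664.

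The other 12 tested members, near Cdh15, Cntnap1, Nlgn2, Nlgn3, Pcdh1 and Pcdh12, did not pass the region test (limma adjusted p 0.132 to 0.983).

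The 1 tested TAPE of the clustered protocadherins (chr18:30250241-30252713) lay under 200 kb from 8 genes, Pcdhb1 to Pcdhb8, so its reads belong to no single one of them. It held 0.0620 to 0.212 CPKM in striatum (median 0.114), 0.0174 to 0.106 CPKM in cortex (median 0.0512) and 0.0139 to 0.157 CPKM in hippocampus (median 0.0414), with a limma adjusted p of 0.0147 and overlapping ranges. Its correlation with the 8 genes ran from -0.553 for Pcdhb2 to 0.632 for Pcdhb4. Clustered protocadherin genes are near copies of each other, and how reads between them were divided is uncertain.

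Among the members' gene profiles, 7 of 61 had every striatal library above all others (11.5%, against 13.2% of the 11017 genes), among them Cntn3, Cdh2, Cdh22 and Cntnap4. Cdh2 encodes N-cadherin, the main classical cadherin of neurons. Every striatal library lay below all others in 14 (23.0%, against 14.1%), among them Pcdh8, Pcdh1, Pcdh20, Cntn1, Cntn2 and Cdh10. The rest of these were Cdh23 and the clustered protocadherins Pcdhb2, Pcdhb22, Pcdhga1, Pcdhga10, Pcdhga7, Pcdhgb8 and Pcdhgc3. Cortex was above all others in 7 (11.5%, against 5.32%): Lrrtm3, Cdh23 and the clustered Pcdhb2, Pcdhga7, Pcdhgb5, Pcdhgb7 and Pcdhgc3. Hippocampus was above all others in 5 (8.20%, against 10.8%): Cntn2, Cntnap1, Pcdh1, Pcdh20 and Pcdhb22. Cortex was below all others in 3 (4.92%, against 3.77%), Cdh19, Cntnap1 and Slitrk5, and hippocampus in 8 (13.1%, against 7.5%), among them Cdh7, Cntn3 and Cntnap4. Genes named in these counts beyond those with tested TAPEs were picked after their values were seen. Most of the 61 profiles belong to clustered protocadherins, and no neurexin or neuroligin profile could be solved. The shares are descriptions and not counts of independent genes.

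To use the reads of weak TAPEs, the reads per M library reads (RPM) of all TAPEs less than 200 kb from a gene were added up. Sums averaging at least 0.2 RPM were tested with limma on log2(RPM + 0.1), for 20 member genes among 5371. The region test called 15 (75.0%, against 47.1% of all), but Pcdhb1 to Pcdhb8 have the same 4 TAPEs and so the same sum, and 8 of 13 distinct sums passed. No sum was selective for cortex (4.49% of all) or hippocampus (6.74% of all) in the limma test, and 10 were for striatum (16.5% of all), from 3 distinct sums, of Cntn3, Cdh7 and the Pcdhb genes. After centring each library on its median the 8 Pcdhb sums no longer passed the region test (adjusted p 0.0569 by limma). Pcdh8 held 0.817 to 1.29 RPM in cortex (median 1.10), 0.800 to 1.25 RPM in hippocampus (median 0.923) and 0.129 to 0.363 RPM in striatum (median 0.230), without overlap of striatum with the others. Its log2 difference of cortex minus striatum was 1.84 (SE 0.19), with a limma adjusted p of 1.48e-11. The sum around Cdh16, a kidney-type cadherin, was lowest in cortex at 0.234 ± 0.102 RPM (SD, n = 6), beside 0.463 ± 0.0715 RPM in hippocampus (SD, n = 6) and 0.391 ± 0.0841 RPM in striatum (SD, n = 7), with a limma adjusted p of 0.00590 over regions. Its hippocampal and striatal ranges overlapped, with a log2 difference of 0.21 (SE 0.21). In a fixed list of 48 other adhesion genes 9 were tested and 4 were called by region, 1 selective for cortex and 1 for striatum.

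The second comparison asked which of these TAPEs responded to KCl. In limma fits within each region, 0 of 22 members passed in cortex, hippocampus or striatum. Of all 1870 tested TAPEs 0.321% were higher and 0% lower in cortex, 0.0535% and 0% in hippocampus, and 0.802% and 0.428% in striatum. At an unadjusted p under 0.05, 0 members were higher in any region (3.90% of all in cortex, 3.10% in hippocampus and 3.32% in striatum). Lower at that limit were 2 in cortex (6.52% of all), 1 in hippocampus (10.2% of all) and 3 in striatum (11.8% of all). Voom on the recovered reads also called 0 in each region. A tested member had a median of 10 reads in a library, and differences within the counting error of so few reads were not detectable.

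Over the 3 regions together, 2 members were lower with KCl (9.09%, against 5.19% of all lower) and 0 higher (1.66% of all) by limma. At an unadjusted limma p under 0.05, 9 were lower (19.6% of all) and 0 higher (4.01% of all). The voom fit called 2 members, partly different ones. It lost the Pcdh12 TAPE described below and gained a TAPE 56.0 kb from Pcdh1. The members' median log2 change was -0.27, beside -0.13 for all tested TAPEs, and 18 of 22 were below 0, beside 70.0% of all. Centring each library on its median shifted all changes by 0.13, after which 0 of 22 members passed (2.51% of all were then higher and 1.98% lower), at a members' median of -0.13. The test of a KCl effect that differs between regions called 0 members of 22 (0.0535% of all) in limma and 0 in voom. At an unadjusted limma p under 0.05 there was 1, beside 154 of all 1870 tested TAPEs. The smallest p belonged to the TAPEs of Cdh7 (limma adjusted p 0.440), Pcdhb1 (limma adjusted p 0.650) and Nlgn1 (limma adjusted p 0.668).

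**Figure D3:**
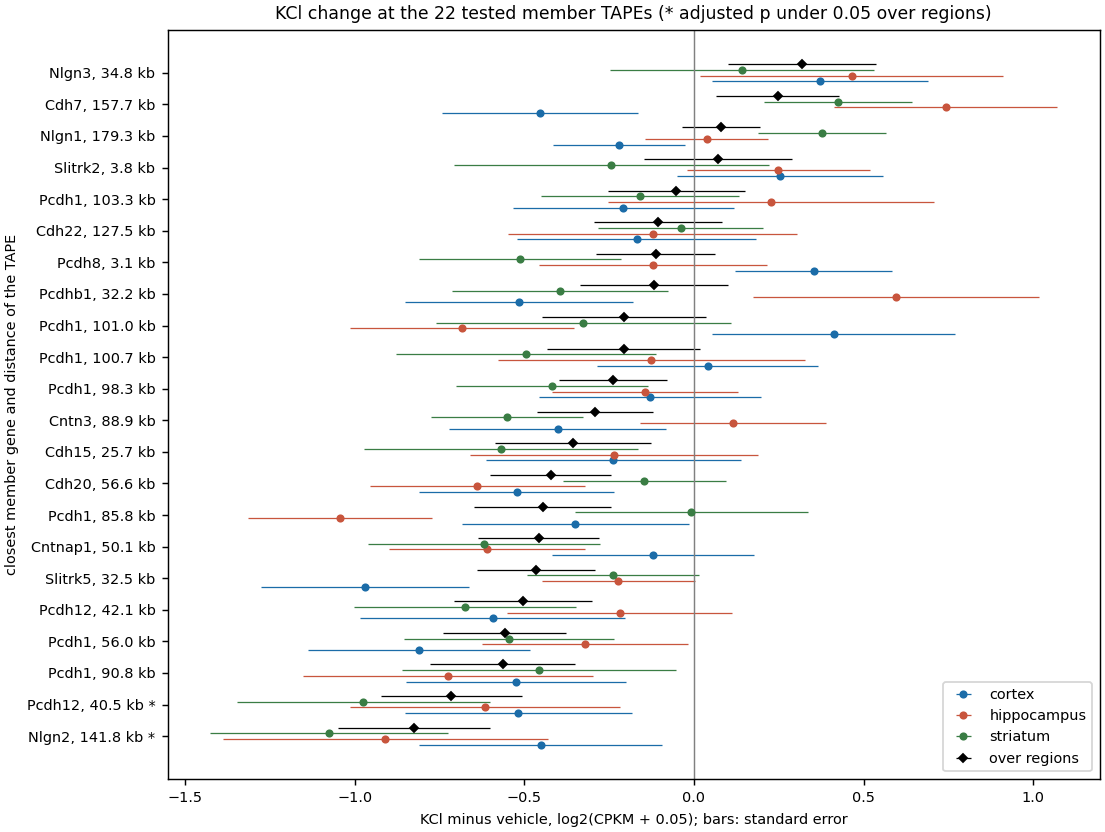
Log2 difference of KCl minus vehicle (horizontal axis, on the log2(CPKM + 0.05) scale, with its standard error) at each of the 22 tested member TAPEs (vertical axis, by closest member and distance), by region in colour and over regions in black. Of the black points 18 lie below 0, and the 2 marked with a star passed the test over regions.

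The lower of the 2 is a TAPE 142 kb from Nlgn2, which encodes the neuroligin of inhibitory synapses (chr10:56302113-56304052, 3006 bp from Tnfsf12, with 29 genes within 200 kb). With vehicle it held 0.0827, 0.114 and 0.222 CPKM in cortex, 0.182, 0.151 and 0.121 CPKM in hippocampus and 0.154, 0.104, 0.0623 and 0.134 CPKM in striatum. With KCl it held 0.0889, 0.0434 and 0.128 CPKM in cortex, 0.153, 0 and 0.0687 CPKM in hippocampus and 0.0487, 0.0380 and 0 CPKM in striatum. Only in striatum did the treatments not overlap. The log2 change was -0.82 (SE 0.22) over regions, with an adjusted p of 0.0222 by limma, and -0.69 with an adjusted p of 0.0645 after centring.

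The other lay 40.5 kb from Pcdh12, a protocadherin of endothelial cells, and 6484 bp from Dele1 (chr18:31389598-31391277). With vehicle it held 0.0955, 0.0821 and 0.0796 CPKM in cortex, 0.221, 0.103 and 0.0539 CPKM in hippocampus and 0.231, 0.132, 0.226 and 0.134 CPKM in striatum. With KCl it held 0.0513, 0.0200 and 0.0696 CPKM in cortex, 0.0729, 0.0315 and 0.0694 CPKM in hippocampus and 0.0450, 0.0220 and 0.171 CPKM in striatum. The treatments did not overlap in cortex. The log2 change was -0.71 (SE 0.21), with an adjusted p of 0.0335 by limma and 0.125 after centring. Without 1 of 7 libraries it no longer passed, and the Nlgn2 TAPE did not without 1 of 3, the cortex vehicle library with the striatal tissue label among these.

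Of the members that did not pass, the smallest unadjusted p in cortex belonged to the Slitrk5 TAPE, at -0.97 in log2 (SE 0.31), where the adjusted p was 0.260 by limma. It held 0.0755, 0.0649 and 0.0699 CPKM with vehicle and 0, 0.0132 and 0.0229 CPKM with KCl. The next were a TAPE 56.0 kb from Pcdh1 at -0.81 (limma adjusted p 0.378) and the Cdh20 TAPE at -0.52 (adjusted p 0.525). In hippocampus they were the TAPE 85.8 kb from Pcdh1 at -1.04 (adjusted p 0.186), the Cdh7 TAPE at 0.74 (adjusted p 0.372) and the TAPE 50.1 kb from Cntnap1 at -0.61 (adjusted p 0.393). Cntnap1 works with contactin where myelin meets the axon, and 9437 bp from that TAPE lies Ezh1. In striatum they were the Nlgn2 TAPE at -1.07 (adjusted p 0.163), the Pcdh12 TAPE at -0.97 (adjusted p 0.232) and the Cntn3 TAPE at -0.55 (adjusted p 0.262).

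Pcdh8 was the 1 member whose gene level was higher with KCl without overlap in each of the 3 regions (1.64% of 61, against 2.57% of all profiles), and 0 were lower in each (2.29% of all). In single regions the counts of higher members were 4 in cortex (9.03% of all profiles), 5 in hippocampus (8.94% of all) and 5 in striatum (8.51% of all), and of lower members 1 (11.2% of all), 3 (16.6% of all) and 6 (19.2% of all). For Pcdh8 the KCl minus vehicle difference was 1.31 SD in cortex, 0.96 SD in hippocampus and 0.04 SD in striatum. The TAPE 3.06 kb away held 0.233, 0.277 and 0.232 CPKM with vehicle and 0.301, 0.329 and 0.359 CPKM with KCl in cortex, without overlap, but the log2 difference there was 0.35 (SE 0.23) and did not pass (adjusted p 0.620 by limma). It was -0.12 (SE 0.33) in hippocampus and -0.51 (SE 0.30) in striatum. Lrrtm2, a postsynaptic neurexin ligand, was higher with KCl without overlap in cortex (1.55 SD) and striatum (0.94 SD), and its 5 TAPEs under 200 kb were all too low to test.

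The sums over whole loci gave more calls. Lower with KCl over regions were 4 of the 20 member sums (20%, against 15.3% of all 5371 lower), and 0 were higher (2.85% of all), by limma, also at an unadjusted p under 0.05. After centring, which shifted all sums by 0.16, 1 stayed lower (4.25% of all) and 0 were higher (5.38% of all). That was Pcdh1, a protocadherin of the delta type, which lies outside the tandem clusters. Its 28 TAPEs summed to 2.77, 2.34 and 3.03 RPM with vehicle and 2.004, 1.87 and 1.52 RPM with KCl in cortex. In hippocampus they held 2.74, 2.84 and 2.74 RPM with vehicle and 1.80, 2.08 and 1.43 RPM with KCl. In striatum they held 2.69, 2.64, 2.16 and 2.73 RPM with vehicle and 1.06, 1.86 and 2.13 RPM with KCl.

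Every KCl library lay below every vehicle library at Pcdh1, which held for 1 of the 5371 tested sums (0.0186%). Within each region on its own, KCl lay below vehicle without overlap for 43 sums (0.801%), of which Pcdh1 was the 1 member. KCl minus vehicle was -0.61 in log2 (SE 0.11), at an adjusted p of 2.27e-05 by limma, and -0.45 with an adjusted p of 0.00164 after centring. No regional difference in the level passed (adjusted p 0.928 by limma), at 2.26 ± 0.571 RPM in cortex (SD, n = 6), 2.27 ± 0.587 RPM in hippocampus (SD, n = 6) and 2.18 ± 0.597 RPM in striatum (SD, n = 7). Of the 31 TAPEs near Pcdh1 or Pcdh12 9 were tested, and all 9 had a log2 change below 0, beside 70.0% of all tested TAPEs before centring. 2 of the 9 overlap by 884 bases. Of the 31, 9 had Pcdh1 as nearest gene, 11 Arap3, 5 Ndfip1, 4 Dele1 and 2 Gnpda1. The Pcdh1 gene level differed between KCl and vehicle by -0.05 SD in cortex, -0.08 SD in hippocampus and 0.03 SD in striatum, while it ran from 1.17 to 1.38 SD in hippocampus and from -1.08 to -0.97 SD in striatum.

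The other 3 sums called lower were those of Pcdh12, Nlgn2 and Cntnap1. Pcdh12, which has 19 TAPEs in common with Pcdh1, changed by -0.46 (SE 0.11, limma adjusted p 0.00206). Nlgn2 changed by -0.77 (SE 0.22, limma adjusted p 0.0113) and Cntnap1 by -0.61 (SE 0.18, limma adjusted p 0.0146). After centring their adjusted p were 0.0572, 0.0622 and 0.098. In the other direction the smallest p belonged to Nlgn3 at 0.31 (limma adjusted p 0.288), Cdh7 at 0.19 and Nlgn1 at 0.09, and none passed. Of the 9 tested genes in the list of other adhesion genes 3 were lower and 0 higher.

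**Figure D4:**
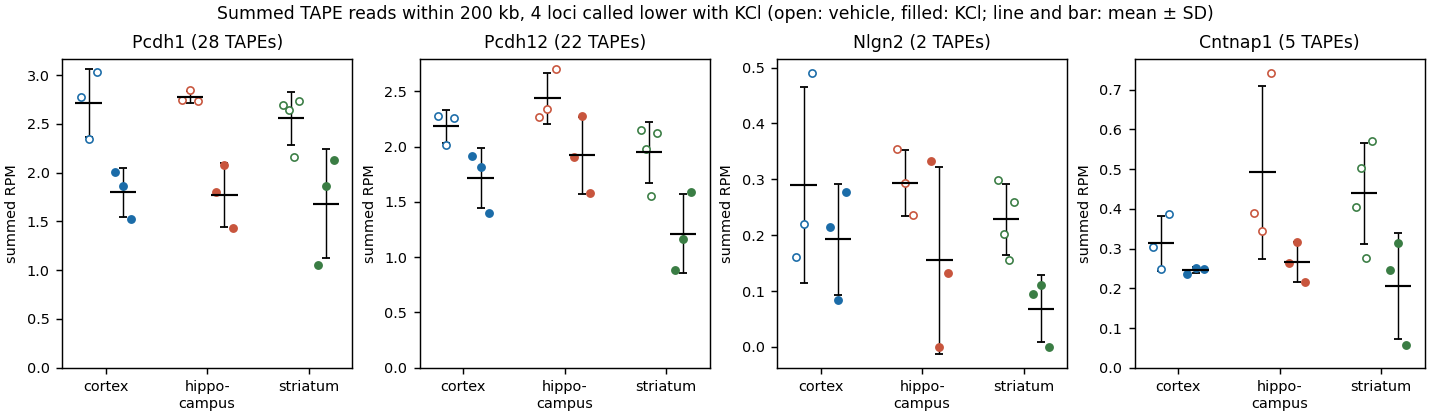
Summed RPM of all TAPEs less than 200 kb from Pcdh1, Pcdh12, Nlgn2 and Cntnap1 (vertical axes, each with its own scale) in each library by region (horizontal axis), with open points for vehicle, filled points for KCl and the mean ± SD of each group. At Pcdh1 the highest KCl library (2.13 RPM) stays below the lowest vehicle library (2.16 RPM).

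The third comparison set the deposited correlations of the members against all other pairs under 200 kb. These Pearson r join each TAPE with each gene over the 19 libraries, which also differ by region and treatment, and pairs that have a TAPE or gene in common are not independent. The 352 member pairs had a median r of 0.0254 (quartiles -0.182 and 0.226) and the 73284 others a median of 0.0264 (quartiles -0.166 and 0.243). An r over 0.5 occurred in 21 member pairs, 5.97% (95% Wilson interval 3.93 to 8.95%), and in 6.64% of the others. An r under -0.5 occurred in 1.99% and 2.15%. Each regional r has only 6 or 7 libraries behind it. With cortex libraries 47 of 330 member pairs (14.2%) exceeded 0.5, beside 10675 of 62785 others. With hippocampal libraries the shares were 15.2% for members and 17.7% for others, and with striatal libraries 9.88% and 14.8%, so that members had the lower share each time. Under -0.5 the members' shares were the higher ones, at 20.6%, 16.8% and 14.5% in the same order, beside 14.2%, 14.1% and 11.2% of the others. In striatum the member median was -0.105 and that of the others 0.0106. These differences were not tested.

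**Figure D5:**
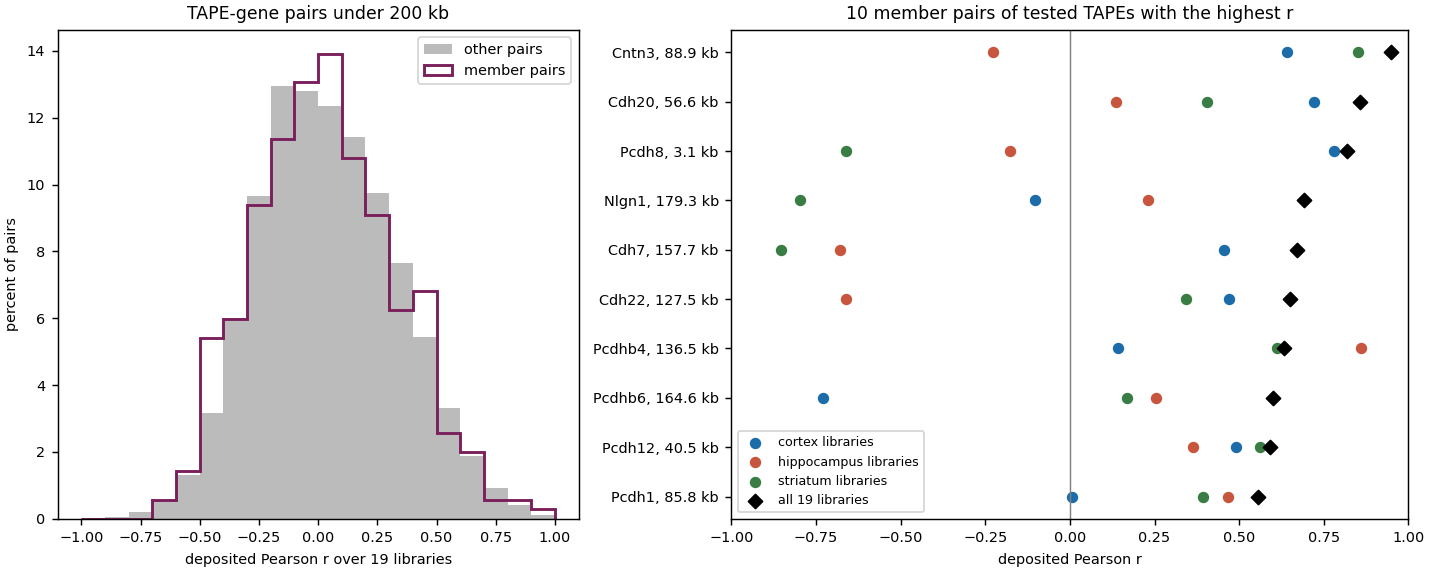
Left, percent of pairs (vertical axis) by deposited r over 19 libraries (horizontal axis) for member pairs (line) and all other pairs under 200 kb (grey), which have medians of 0.0254 and 0.0264. Right, r over all libraries (black) and within each region (colour) for the 10 member pairs of tested TAPEs with the highest r, among which Cdh7 stands at -0.855 and Nlgn1 at -0.799 in striatum.

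The members differed among themselves. The clustered protocadherins, with 145 pairs on 12 TAPEs, had a median of -0.0118 and 3 pairs over 0.5. The 207 other member pairs had a median of 0.0527, and 18 of them, 8.70%, were over 0.5. Where the member was the nearest gene, 13.5% of 104 pairs were over 0.5 (median 0.117), beside 8.96% of the other nearest-gene pairs (median 0.0643). The member was the best-correlated gene within 1 Mb in 69 of 352 pairs (19.6%), beside 7.74% of the other pairs, and 47 of these 69 had no other gene to choose from. Among tested TAPEs 11 of 38 member pairs (28.9%) were over 0.5, beside 14.2% of the other pairs, and these 38 pairs came from only 22 TAPEs.

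By family, pairs over 0.5 numbered 9 among the other protocadherins, of which Pcdh8 had 6, 6 among the cadherins, 3 among the clustered protocadherins and 1 each among the contactins, neuroligins and Slitrk genes. The neurexins with 8 pairs, the Lrrtm genes with 8 and the Cntnap genes with 7 had none, too few pairs to tell from the 6.64% of all other pairs. The highest neurexin pair reached 0.487, the highest Lrrtm pair 0.349 and the highest Cntnap pair 0.337.

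Several of the high correlations had another sign within single regions. After Cntn3 (0.950) the highest pairs of tested TAPEs were Cdh20 (0.858), Pcdh8 (0.818), Nlgn1 (0.692), Cdh7 (0.671), Cdh22 (0.651), Pcdhb4 (0.632), Pcdhb6 (0.601), Pcdh12 (0.591) and Pcdh1 (0.557). The Pcdh8 pair gave 0.780 in cortex, -0.176 in hippocampus and -0.661 in striatum. The Nlgn1 pair gave -0.103, 0.232 and -0.799 in the same order. The Cdh7 pair gave 0.454, -0.678 and -0.855, so that the TAPE and the gene ran against each other within hippocampus and striatum and together over all. The Slitrk2 pair, at 0.548 over all libraries, was negative within each region, at -0.190, -0.770 and -0.367. The Pcdh12 pair was positive in each, at 0.489, 0.363 and 0.562, although Dele1 had a higher r (0.707) with that TAPE.

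The lowest pairs among tested TAPEs were Pcdhb2 (-0.553), Nlgn3 (-0.419), Pcdh12 with the TAPE near Pcdh1 (-0.394), Pcdhb8 (-0.355) and Pcdh1 with a TAPE near Pcdh12 (-0.309). The Nlgn3 TAPE (chrX:71233066-71235486, 10.3 kb past the end of the gene) had medians of 0.0344 CPKM in cortex, 0.0427 CPKM in hippocampus and 0.0858 CPKM in striatum and did not pass the region test (limma adjusted p 0.132). Nlgn3 encodes a neuroligin found at both excitatory and inhibitory synapses.

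By the strand of the closest member, 15 of the 22 tested TAPEs lay on the 3′ side and 7 on the 5′ side, and of the 176 untested 69 and 107. The 3′ group held the TAPEs of the Pcdh1 and Pcdh12 stretch.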

How the data were processed

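The authors trimmed strand-specific total RNA-seq reads (75 bp, paired) with Trim Galore 0.4.5, aligned them to Rn6 with STAR, handled alignments with SAMtools 1.9 and deposited TAPE levels in CPKM, which has the scale of RPKM, for every TAPE-gene pair within 1 Mb, together with Pearson r, deposited as a score, over all libraries and per region. Orientation labels in the deposited table follow coordinate and not strand, so sides were recomputed from the gene's strand.

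Whole reads were recovered from CPKM and region length (100% of values within 0.01 read). Fits used limma 3.58.1 (R 4.3.3) with a mean-variance trend on log2(CPKM + 0.05), or log2(RPM + 0.1) for locus sums, so that changes of low regions are understated. Scripts were tested on simulated data. Between replicate libraries the reads varied with chi-square per degree of freedom 2.18 to 2.52 in 21 pairs, taking each read as independent. The reads were paired, and if both mates of a fragment were counted, counting error alone would raise these values. How much of the spread lay beyond counting error was not tested. The recovered depths are also higher than the reads per sample stated in the paper, and whether mates explain this was not tested. Intervals cover counting error only.

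The members, gene lists and tests were chosen with earlier results of these data known. Named TAPEs are those that pass a KCl test or have the 3 smallest p in it, up to 5 selective ones per region by F-test p, the 5 highest means, and the 10 highest and 5 lowest r among tested TAPEs. Named genes are the 5 with most TAPEs, the top 3 locus sums per region and KCl direction, and the highest sum in each family, of which Lrrtm2 and Nrxn3 (0.0544 RPM) were below the limit. Alternatives were another pseudocount, no filter, centring, voom, leaving out each library, another distance, covariates and only nearest genes.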

Additional observations from a re-analysis of the deposited data

Results flagged for a closer look

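In 136 sets of 4 to 7 libraries examined for 1 value far from the rest, 6 values stood apart, where chance alone would give about 1 in 20. The Slitrk5 TAPE was at 0 CPKM in hippocampus KCl replicate 1, against 0.0261 to 0.0284 CPKM in the other 5 hippocampal libraries. The Pcdh12 TAPE stood at 0.221 CPKM in hippocampus vehicle replicate 1, against 0.0315 to 0.103 CPKM. The Nlgn1 TAPE stood at 0.288 CPKM in striatum vehicle replicate 6, against 0.225 to 0.232 CPKM in the other 3. The Nlgn3 TAPE stood at 0.0845 CPKM in cortex KCl replicate 3, against 0.0228 to 0.0417 CPKM. The Cntnap1 sum stood at 0.743 RPM in hippocampus vehicle replicate 3, against 0.217 to 0.389 RPM. The Pcdh1 sum stood at 2.16 RPM in striatum vehicle replicate 6, against 2.64 to 2.73 RPM.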

How the results depend on the processing

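Each count and each named value was recomputed under the other settings, 1 choice at a time. Of the recomputed values at named TAPEs, pairs and loci, 719 kept their direction and side of the threshold, 34 lost the threshold, 8 gained it and 2 changed sign. The members selective for cortex numbered 2 without the filter on low values, 1 with a pseudocount of 0.25, 1 with treatment as a covariate, and 0 to 1 when a library was left out. Without the filter 4 were selective for hippocampus and 3 for striatum (4 to 6 when a library was left out). The region test called 9 to 10 members when a library was left out. The 2 KCl calls over regions became 0 after centring, without the filter, with the replicate block and where only TAPEs nearest to a member were used, and ranged from 0 to 3 when a library was left out; over the whole table the 128 calls became 84, 55 and 20 under the first 3. The 15 regional locus calls became 4 within 100 kb, 7 after centring, when the 8 Pcdhb sums were lost together, and 27 without the filter, and ranged from 14 to 16. Without the filter all 198 member TAPEs and all 82 member genes with a TAPE were tested. Within 100 kb the number of sums tested can differ as well, so these counts do not have the denominators of the main tests. The shares of all TAPEs and sums called by region under these settings are not given here. The regional counts therefore cannot be set against a background. The 4 KCl locus calls became 1 after centring and 1 with the replicate block, and ranged from 3 to 5. Pairs over 0.5 made up 10.0% within 100 kb, 28.9% for tested TAPEs and 13.5% where the member was the nearest gene. Each of these was above the share of the other pairs under the same setting. Within 500 kb the member share was 4.43%, below the 5.70% of the other pairs. With cortex, hippocampus or striatum libraries alone the member shares were 14.2%, 15.2% and 9.88%. Each of these regional shares was below that of the other pairs. These differences were not tested. Within 100 kb the Pcdh12 sum had a log2 difference of hippocampus minus striatum of -0.22 in place of 0.43, and with the block the Nlgn1 sum changed by -0.094 with KCl in place of 0.085. The cause of these changes was not tested. With voom the Pcdh12 TAPE no longer passed for KCl over regions, and the TAPE 56.0 kb from Pcdh1 did (adjusted p 0.0343). Same-numbered vehicle and KCl libraries of cortex and hippocampus did not deviate together (r from -0.0418 to 0.0142). With so few reads in a TAPE this check could not settle whether they were paired, and the block fit remains an alternative. Depth limits all of this: 111 of 198 members had fewer than 20 reads in all.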
